A study of Mus musculus with 103 samples.

Results

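Cells of the embryonic face lie in a hydrated matrix of hyaluronan, proteoglycans and adhesive glycoproteins, and 9 genes of that matrix were followed here through an atlas of the mouse face. Small leucine-rich proteoglycans bind collagen fibrils and growth factors. Versican, a large chondroitin sulphate proteoglycan, hangs on hyaluronan chains, and a link protein locks it there. Fibronectin and periostin tie cells to this matrix through integrins, and fibronectin lines the paths along which neural crest cells migrate. The genes were Lum (lumican), Dcn (decorin), Bgn (biglycan) and Ogn (osteoglycin) of the small leucine-rich family, Vcan (versican), Hapln1 (the hyaluronan and proteoglycan link protein), Has2 (the main hyaluronan synthase of the embryo), Fn1 (fibronectin) and Postn (periostin). They were chosen by symbol in the platform annotation, and each of the 9 had 1 probe set. They are 9 of 19938 genes with a value. The rule goes by symbol and uses no measured value, but the list was drawn up with earlier results of these data known. The set is therefore not blind to the values, and shares over all genes are given beside its counts as background only.

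The atlas was made from wild-type CD1 mice, an outbred stock, with no treatment or mutation in any group. Regions were cut from frozen sections by laser capture, and their amplified RNA was read on Affymetrix whole-transcript arrays, 1 array for each of 103 samples. One sample, whose labels name both mandibular arch and epidermal ectoderm, was put in no group. At E8.5 there were 4 groups and 18 samples: mesenchyme, caudal neural epithelium, floor plate neural epithelium and non-floor plate neural epithelium. At E9.5 there were 6 groups and 34 samples: mandibular arch, maxillary arch, cranial mesenchyme, otic vesicle, epidermal ectoderm and neuroepithelium. At E10.5 there were 12 groups and 50 samples: medial nasal prominence, lateral nasal eminence, mandibular arch, maxillary arch, mandibular arch epidermal ectoderm, maxillary arch epidermal ectoderm, olfactory pit, Rathke's pouch, and neuroepithelium at the midline, under the medial prominence, under the lateral prominence, and away from the facial eminences (the control neuroepithelium). Groups held 4 to 7 samples. The labels do not tie samples to embryos, so that samples of a group may share one, and p-values measure the spread between samples only.

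All values below are log2 of the deposited ratio, in which 0 marks a probe set's own baseline. A value compares 1 gene between samples, and it gives no level that could be set against another gene. The spread of log2 ratios over all genes of an array, an SD of 0.391 to 1.334, was above 0.85 on 11 arrays. Markers of the labelled tissue were clearer in some groups than in others. At E8.5, 8 neural markers averaged 0.51 to 1.02 in caudal, 0.17 to 0.55 in floor plate and 0.31 to 0.83 in non-floor plate samples. Their mean was -0.35 to 0.67 in E8.5 mesenchyme, so the ranges overlapped, and it was 1.06 to 1.47 in E9.5 neuroepithelium. A mean over 8 mesenchyme markers (Twist1, Prrx1, Pdgfra and others) ran from 1.40 to 2.16 in the samples of the 4 groups labelled E8.5 mesenchyme, E9.5 cranial mesenchyme, mandibular arch and maxillary arch. In the samples labelled E10.5 mandibular arch epidermal ectoderm that mean was 1.27 to 1.67, while 8 surface ectoderm markers (Epcam, Cdh1 and others) averaged -0.50 to 0.10, against 1.53 to 2.26 in the E10.5 maxillary arch epidermal ectoderm. The samples labelled E10.5 maxillary arch had ectoderm markers at -0.70 to 2.81 and mesenchyme markers at 0.17 to 1.55. Those 2 groups are therefore named below by their labels only. In 4 samples of neuroepithelium under the medial prominence the title says lateral and the other labels say medial, and they were kept as medial.

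Start-site windows, 250 bases before to 50 bases after a transcript's start in RefSeq's mouse annotation (build GRCm38.p6), were found for Ogn, Bgn, Vcan, Hapln1 and Postn, but not for Lum, Dcn, Has2 and Fn1. The windows of Hapln1, Vcan and Bgn are shown because the probe sets of these genes were all higher in E8.5 mesenchyme than in neural epithelium. Hapln1 and its binding partner Vcan are also next to each other in RefSeq's gene order on chromosome 13. Their windows are chr13:89540386-89540685 on the plus strand and chr13:89742463-89742762 on the minus strand, and that of Bgn is chrX:73483351-73483650 on the plus strand. Each is written 5′ to 3′ along its gene, and capitals mark the E-box letters CANNTG, the core that basic helix-loop-helix factors read.
Hapln1: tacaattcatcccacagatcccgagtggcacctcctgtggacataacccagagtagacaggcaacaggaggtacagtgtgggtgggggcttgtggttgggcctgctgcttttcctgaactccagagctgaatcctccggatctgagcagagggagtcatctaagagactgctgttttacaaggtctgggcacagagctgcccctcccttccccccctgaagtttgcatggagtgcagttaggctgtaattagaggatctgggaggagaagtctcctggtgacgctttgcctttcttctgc
Vcan: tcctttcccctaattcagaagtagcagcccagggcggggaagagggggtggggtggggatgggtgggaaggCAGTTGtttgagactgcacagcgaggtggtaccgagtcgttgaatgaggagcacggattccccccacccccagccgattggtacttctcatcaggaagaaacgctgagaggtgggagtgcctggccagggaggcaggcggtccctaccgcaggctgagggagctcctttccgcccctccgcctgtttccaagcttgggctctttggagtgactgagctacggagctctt
Bgn: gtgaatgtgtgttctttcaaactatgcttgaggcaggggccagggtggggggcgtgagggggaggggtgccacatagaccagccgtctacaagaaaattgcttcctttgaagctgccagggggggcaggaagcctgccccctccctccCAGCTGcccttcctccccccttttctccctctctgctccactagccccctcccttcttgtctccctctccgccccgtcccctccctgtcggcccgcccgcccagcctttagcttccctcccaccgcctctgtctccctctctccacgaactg
The windows were searched on both strands for CANNTG, for TATAAA (the TATA box), for TAAACA (the core of forkhead sites) and for CCGGAA (the core of ETS sites). Vcan held 1 CANNTG, at position -179 from the start site, and Bgn held 1 as well, nearer to its start site. Hapln1 held none of the 4 motifs. Of 32851 windows of the same length, 72.3% held CANNTG, 13.6% TATAAA, 13.4% TAAACA and 14.9% CCGGAA. The letters CANNTG in Vcan and Bgn are thus what most windows hold.

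Among the 22 groups, 7 of the 9 genes varied by limma's moderated F-test with Benjamini-Hochberg adjustment over all genes, against 59% of all genes at an adjusted p under 0.05. Hapln1 (adjusted p = 2e-13), Lum (5.2e-10) and Bgn (2.7e-09) ranked at 109, 283 and 376 of 19938 by F. Vcan (9.5e-05), Has2 (0.00029), Fn1 (0.0056) and Postn (0.024) also passed, and Ogn (0.13) and Dcn (0.32) did not. With array weights Ogn passed the F-test (adjusted p = 0.019), and without arrays of wide spread Postn did not (0.074). The genes differed in how far they ranged: group means spanned 4.90 for Lum, 4.59 for Hapln1, 2.46 for Bgn, 2.22 for Postn and 2.08 for Vcan, and 0.97 for Dcn, 0.77 for Fn1, 0.41 for Has2 and 0.19 for Ogn. When the 22 groups were put in order of their means, neighbouring groups overlapped in all 21 pairs for 8 of the genes. Hapln1 had the exception: its lowest E8.5 mesenchyme sample, 3.91, lay above the highest of the group next in order, the E9.5 maxillary arch at 3.57. Overlap of neighbouring groups was not counted over all genes, so it does not tell these 9 genes from others.

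**Figure D1:**
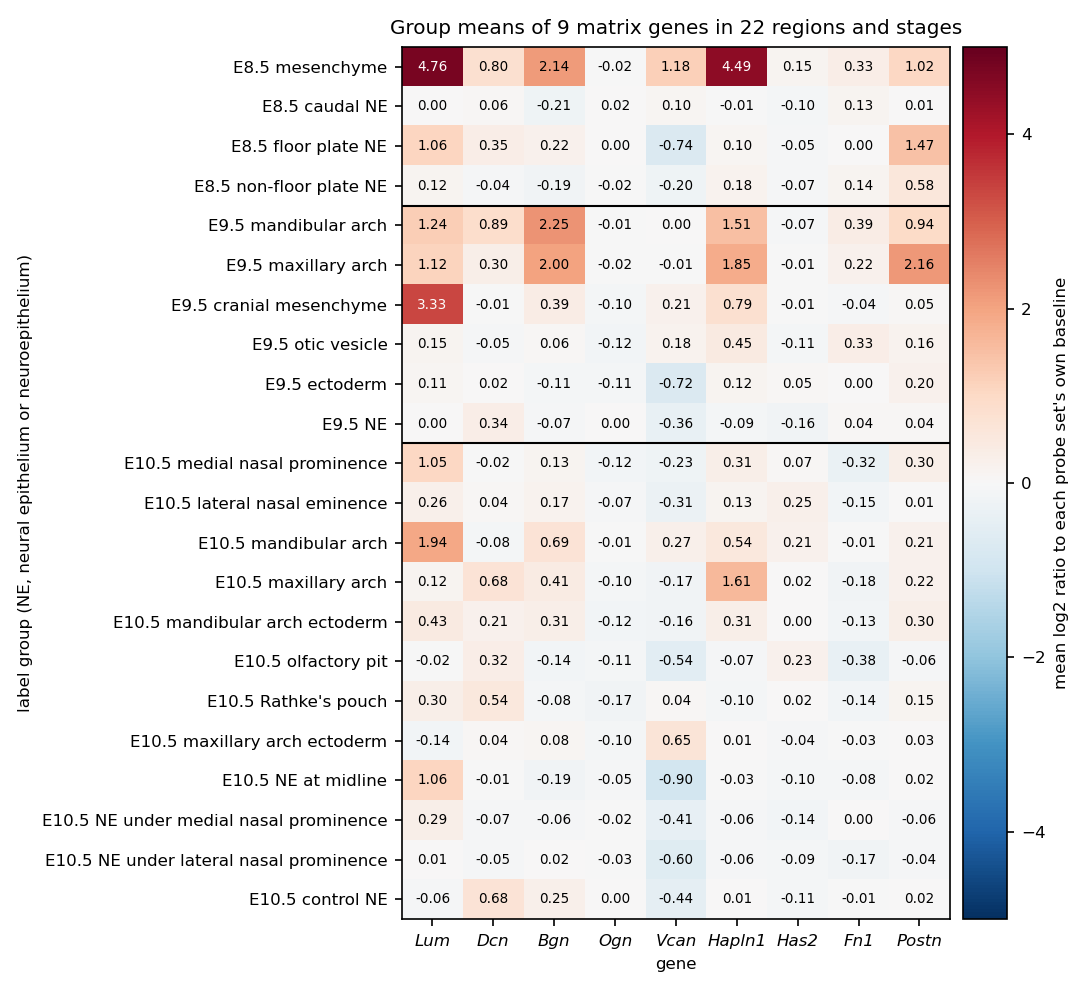
Mean log2 ratio of 9 matrix genes (columns) in 22 label groups (rows, E8.5 at the top, lines between stages; n = 4 to 7 samples each), with red above and blue below each probe set's baseline. Lum and Hapln1 are highest in E8.5 mesenchyme, at 4.76 and 4.49, and the columns of Has2 and Ogn stay between -0.17 and 0.25.

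At E8.5 mesenchyme was compared with neural epithelium. Mesenchyme held more of 4 genes: Hapln1 was 21.2-fold higher, Lum 20.6-fold, Bgn 4.58-fold and Vcan 2.75-fold. These are 4 of 9 genes, all higher, where 2.4% of all genes passed in either direction. Each difference is the mesenchyme mean minus the average of 3 neural groups (caudal, floor plate and non-floor plate), 5 samples against 13.

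Hapln1 read 3.91, 5.11, 4.47, 4.45 and 4.52 in the 5 mesenchyme samples. In neural tissue it read -0.06 to 0.07 in 4 caudal samples, 0.00 to 0.36 in 4 floor plate samples and 0.05 to 0.41 in 5 non-floor plate samples. Every mesenchyme sample lay above every neural sample, and the difference was 4.40 ± 0.38 (SE, adjusted p = 2.3e-15).

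Lum, a keratan sulphate proteoglycan known for spacing collagen fibrils in the cornea, read 4.09, 3.87, 6.11, 5.11 and 4.59 in mesenchyme. Of the 13 neural samples, 12 lay between -0.09 and 0.66, and floor plate replicate 4 read 4.21. That sample fell within the mesenchyme range, and it also had the highest Postn of the series, 5.88. The difference was 4.36 ± 0.52 (adjusted p = 1.1e-09), and 4.71 without that sample.

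Bgn, which carries chondroitin or dermatan sulphate chains and binds TGF-beta, read 1.60, 3.89, 0.82, 1.78 and 2.59 in mesenchyme. The neural samples lay between -0.32 and -0.01, apart from floor plate replicate 4 at 1.33. Mesenchyme replicate 3 was below that sample, so the groups overlapped. The difference was 2.20 ± 0.33 (adjusted p = 1.1e-06), and 2.32 without that sample.

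Vcan read 0.62, 0.55, 1.67, 1.61 and 1.46 in mesenchyme, against -0.22 to 0.25 in caudal, -1.31 to -0.05 in floor plate and -0.60 to 0.22 in non-floor plate samples. The groups did not overlap, although 2 mesenchyme samples stood well below the other 3. The difference was 1.46 ± 0.29 (adjusted p = 3e-04).

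The other 5 genes did not pass at E8.5. Has2 averaged 0.15 ± 0.10 in mesenchyme and -0.07 ± 0.06 in neural tissue (SD, n = 5 and 13), with a difference of 0.22 ± 0.07 (SE, adjusted p = 0.095). Dcn had a difference of 0.68 ± 0.33 (adjusted p = 0.56). Postn was split within mesenchyme, with 2.18 and 2.15 in replicates 4 and 5 and 0.24 to 0.28 in the other 3.

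None of 10 other small leucine-rich proteoglycans passed, 1 of 13 other hyaluronan genes rose and 1 of 12 heparan sulphate proteoglycans rose. The hyaluronan gene was Tnfaip6 (2.22 ± 0.60, adjusted p = 0.022), whose product moves heavy chains onto hyaluronan, and the heparan sulphate gene was the syndecan Sdc3 (0.98 ± 0.15, adjusted p = 7.2e-07). Of 13 other matrix glycoproteins, 3 rose: Vtn, or vitronectin (1.96 ± 0.36), Nid2, a basement membrane nidogen (1.03 ± 0.19), and Tgfbi (0.77 ± 0.18). Of 14 enzymes that make chondroitin and its precursor sugars 1 rose, Csgalnact1 (0.23 ± 0.07, adjusted p = 0.038). None of 8 integrins and none of 6 versican-cleaving proteases passed. The median difference was 0.68 over the 9 genes and -0.02 over all genes.

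Markers of vessels and of other cells moved with these genes. Of 7 endothelium markers 6 rose, with Emcn at 4.67 and Cldn5 at 4.52, and their mean was 1.62 to 2.57 in mesenchyme samples, against -0.48 to 0.07 in neural samples. Of 4 erythroid markers 3 rose (median difference 2.04), as did 1 of 5 cardiac muscle markers (Tnnt2, 1.08) and 1 of 4 macrophage markers (Fcgr3, 0.52). Of 8 mesenchyme markers 7 rose, and of 8 neural markers 1 fell. The part of these cells in the matrix results was not tested. Because a ratio holds no absolute level, it cannot be read whether a marker was near 0. In captured tissue, fewer cells of a type and less RNA per cell cannot be told apart.

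**Figure D2:**
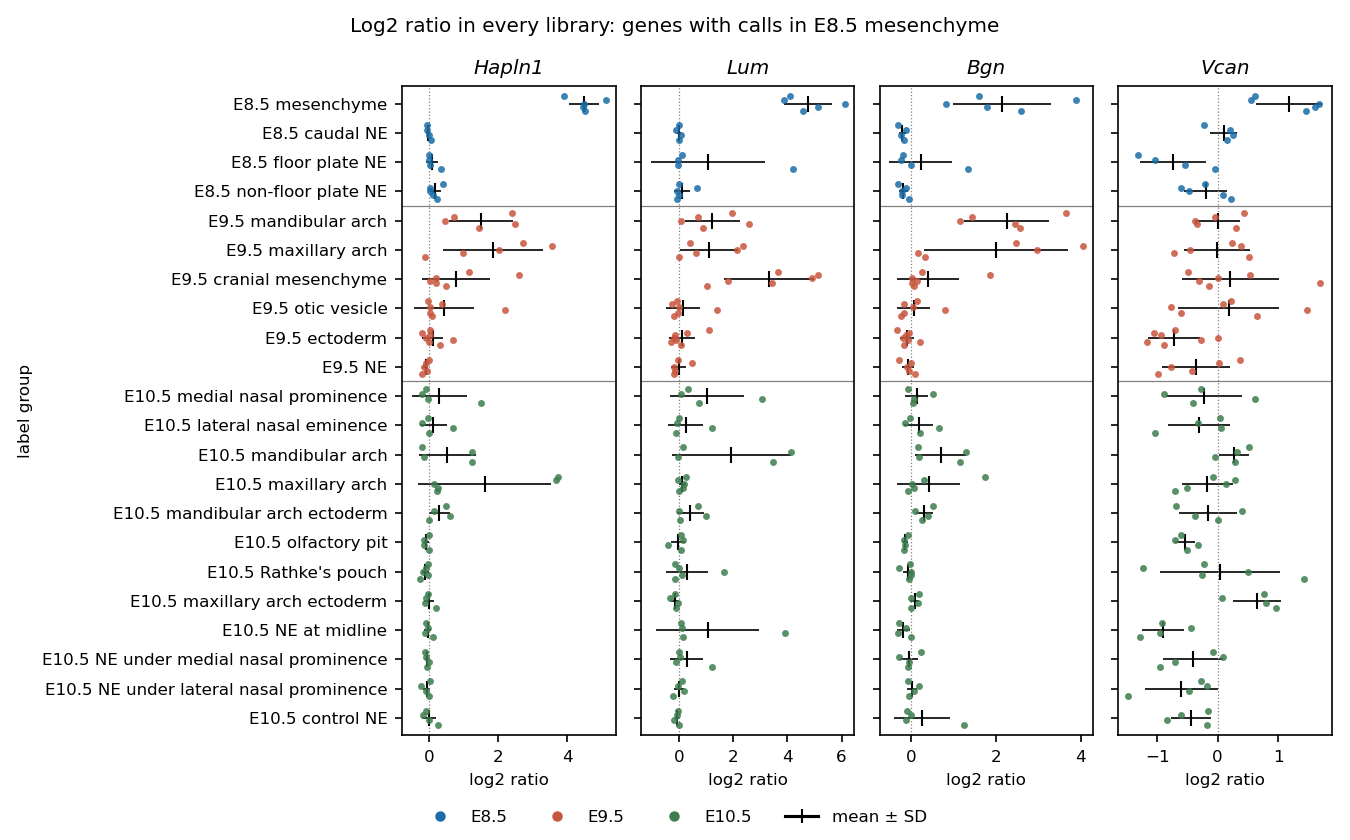
Log2 ratio of Hapln1, Lum, Bgn and Vcan (panels, each with its own horizontal scale) in every sample (points, coloured by stage) of 22 label groups, with the group mean ± SD in black. The E8.5 mesenchyme samples of Hapln1, 3.91 to 5.11, stand right of all other groups, and floor plate replicate 4 stands alone in its group for Lum at 4.21.

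At E9.5 a related contrast, cranial mesenchyme against neuroepithelium, had 1 gene of 9, against 1.15% of all genes. The E8.5 comparison used 3 neural groups and other sample numbers, so the counts of the 2 stages are not like for like. Lum was 10.1-fold higher in cranial mesenchyme. It read 1.03 at the lowest, 3.55 at the median and 5.14 at the highest of 6 mesenchyme samples, against -0.02, 0.49, -0.18, -0.13 and -0.17 in neuroepithelium. All 6 mesenchyme samples lay above all 5 neuroepithelium samples, and the difference was 3.33 ± 0.60 (SE, adjusted p = 0.00012). The call was lost when the 2 groups were fitted alone (adjusted p = 0.11). Hapln1, at 0.05 to 2.61 in mesenchyme against -0.19 to 0.01 in neuroepithelium, had a difference of 0.88 ± 0.43 (adjusted p = 0.67), although the groups did not overlap.

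Of the other lists in that contrast, 1 of 13 hyaluronan genes rose, again Tnfaip6 (2.96 ± 0.69, adjusted p = 0.0077). Of the glycoproteins, Nid2 and Nid1 rose by 0.92 and 0.67, and Vtn fell by 1.67. The integrin subunit gene Itga8 rose by 0.55. Of 8 mesenchyme markers 5 rose, and of 7 endothelium markers 2 rose, with a list mean of 0.72 to 2.36 in mesenchyme, against -0.38 to 0.12 in neuroepithelium. Of 4 erythroid markers 1 rose, and of 8 neural markers 2 fell.

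From E8.5 mesenchyme to E9.5 cranial mesenchyme, 2 of 9 genes were lower, where 1.53% of all genes passed. Hapln1 was 13-fold lower and Bgn 3.36-fold lower. The E8.5 label names no region, so stage and region cannot be told apart here. In the E9.5 mandibular and maxillary arches mean Bgn was 2.25 and 2.00, against 2.14 in E8.5 mesenchyme. Mean Hapln1 was 1.51 and 1.85 there, against 4.49 in E8.5 mesenchyme. In E9.5 cranial mesenchyme Hapln1 read 0.05 at the lowest, 0.36 at the median and 2.61 at the highest, against 3.91 to 5.11 in the E8.5 samples given above. No E9.5 sample reached the E8.5 range, and the difference was -3.70 ± 0.43 (adjusted p = 1.2e-09).

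Bgn was near baseline in 5 of the 6 E9.5 samples, 0.01 to 0.25, and replicate 2 read 1.86, which lies within the E8.5 range of 0.82 to 3.89. The difference was -1.75 ± 0.38 (adjusted p = 0.0033). It was -1.31 (adjusted p = 0.072) without E8.5 replicate 2, and its adjusted p was 0.24 with the 2 groups fitted alone. Differences of all 9 genes were below 0, from -3.70 to -0.08. Their median was -0.97, against -0.04 over all genes. The share of all genes below 0 was not counted, and the 9 genes share arrays, so a joint fall is not read from this. Lum (-1.43 ± 0.60), Vcan (-0.97 ± 0.33), Dcn (-0.81 ± 0.38) and Fn1 (-0.37 ± 0.17) did not pass (adjusted p = 0.14 to 0.37). None of the 7 endothelium markers passed in this comparison, but their median difference was -0.62. Their list mean was 1.62 to 2.57 in E8.5 mesenchyme samples and 0.72 to 2.36 in cranial mesenchyme samples. The part of these cells in the matrix results was not tested. All 4 erythroid markers were higher at E9.5, by a median of 4.13. Of 13 glycoproteins Nid1 rose by 0.65, and Vtn and Nid2 fell by 1.85 and 0.86.

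The 2 stages were then set against each other through their neural tissue. The difference between mesenchyme and neural tissue was smaller at E9.5 than at E8.5 for Hapln1, by -3.44 ± 0.62 (adjusted p = 0.0005), 1 of 9 genes against 0.366% of all genes. Its group means were 0.79 in cranial mesenchyme and -0.09 in neuroepithelium at E9.5, and 4.49 and 0.18 at E8.5 in mesenchyme and in neural epithelium outside the floor plate. Bgn had -1.86 ± 0.55 (adjusted p = 0.16). Of the other matrix lists Vtn alone passed (-3.69 ± 0.60, adjusted p = 5.5e-05). Lum did not pass, so that a change in its contrast between the stages was not shown. The comparisons of E8.5 and E9.5 share samples and are not independent of each other. The E9.5 mesenchyme in them is cranial mesenchyme, so region may differ along with stage.

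Within E9.5, the first arches had more Bgn and less Lum than cranial mesenchyme, 2 of 9 genes against 0.933% of all genes. Bgn read 3.65, 1.43, 1.16, 2.46 and 2.56 in the mandibular arch and 2.47, 4.07, 2.98, 0.15 and 0.32 in the maxillary arch, against 0.01 to 1.86 with a median of 0.10 in cranial mesenchyme. All 5 mandibular samples exceeded 1, and the maxillary samples were split. The arches were 3.33-fold higher, by 1.74 ± 0.33 (adjusted p = 0.00056), and the adjusted p was 0.45 with the groups fitted alone.

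Lum read 1.96, 0.69, 0.09, 2.57 and 0.90 in the mandibular arch and 0.42, 2.37, 2.16, 0.62 and 0.01 in the maxillary arch. Cranial mesenchyme, at 1.03 to 5.14, overlapped with both. Lum was 4.45-fold lower in the arches, by -2.15 ± 0.51 (adjusted p = 0.017). The adjusted p was 0.057 and 0.085 without cranial mesenchyme replicate 1 or 3, and 0.44 with the groups fitted alone. The endothelium mean was 0.40 to 2.39 in arch samples and 0.72 to 2.36 in cranial mesenchyme, and none of its 7 markers passed. Without cranial mesenchyme replicate 2, 5 of the 9 genes passed, and the share of all genes in that refit is not given here. With array weights 5 of the 9 passed as well, where 3495 of 19938 genes passed. These larger counts are thus not read as a result about the 9 genes.

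Among other matrix genes in that comparison, Tgfbi rose by 1.00 in the arches, the integrin subunit Itgb5 rose by 1.34, and Itga8 and Optc (opticin, a small leucine-rich proteoglycan of the eye) fell by 0.45 and 0.65. None of the 9 genes passed between the mandibular and maxillary arches, where 0.0702% of all genes passed. Postn, with the lowest unadjusted p of the 9, was -1.22 in the mandibular against the maxillary arch (95% interval -2.31 to -0.14, adjusted p = 1).

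The arches were also set against E9.5 epidermal ectoderm, the sheet that covers them. Here 4 of 9 genes passed, all higher in the arches, but so did 37% of all genes, and a share of 4 in 9 is near that background. Bgn was 4.71-fold higher (2.24 ± 0.31, adjusted p = 2e-07), at 0.15 to 4.07 in 10 arch samples against -0.34 to 0.21 in 7 ectoderm samples. Hapln1 was 2.95-fold higher (1.56 ± 0.35, adjusted p = 0.00064), at -0.11 to 3.57 against -0.20 to 0.70.

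Postn, a matricellular ligand of integrins known from heart valves and periosteum, was 2.55-fold higher (1.35 ± 0.42, adjusted p = 0.01). It read 2.03, 0.16, -0.03, 1.56 and 0.96 in the mandibular arch and 3.63, 4.07, 3.02, 0.06 and 0.03 in the maxillary arch. In ectoderm it read -0.13 to 0.18 in 6 samples and 1.12 in replicate 5. Of the 10 arch samples 5 were above 1, and the adjusted p was 0.088 with the groups fitted alone.

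Vcan was 1.64-fold higher (0.71 ± 0.27, adjusted p = 0.031), at -0.72 to 0.52 in the arches against -1.17 to 0.01 in ectoderm. With quantile normalization the difference was 0.28 (adjusted p = 0.52), and leaving out any 1 of 8 of the 17 samples also ended the call.

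The maxillary arch samples were split in Postn, Bgn, Hapln1 and the endothelium mean, which were picked out after their values were seen. Lum did not follow the split, since replicate 1 (0.42) lay below replicate 4 (0.62). Replicates 1 to 3 had Postn at 3.02 to 4.07, Bgn at 2.47 to 4.07 and Hapln1 at 2.04 to 3.57, and an endothelium mean of 1.95 to 2.39. Replicates 4 and 5 had Postn at 0.06 and 0.03, Bgn at 0.15 and 0.32, Hapln1 at 1.00 and -0.11, and an endothelium mean of 0.85 and 0.40. Against ectoderm all 7 endothelium markers and 3 of 4 erythroid markers (median difference 1.65) were higher in the arches. Of 8 mesenchyme markers 5 were higher and 1 lower, 7 of 8 ectoderm markers were lower, of 8 neural markers 1 was higher and 5 lower, and 1 of 5 cardiac muscle markers was lower. The endothelium mean in ectoderm was -0.37 to 0.85. The part of these cells in the matrix results was not tested.

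Other matrix lists moved both ways against ectoderm. Of 13 glycoproteins 7 rose and 2 fell, with Fbln1 (1.76 ± 0.38), Nid2 (1.05 ± 0.18) and Fbln5 (1.02 ± 0.22) the 3 largest. Of 13 hyaluronan genes 2 rose, Tnfaip6 (2.61 ± 0.56) and Hmmr (0.81 ± 0.33), and 5 fell by 0.33 to 0.57, Bcan the most. Of 8 integrins, Itgb5 (2.18 ± 0.32) and Itga5 (1.19 ± 0.24), a subunit of the main fibronectin receptor, rose and 2 fell, Itgb3 by 0.29. Of 14 chondroitin and precursor sugar enzymes 4 rose, among them Dse (1.05 ± 0.31), Chpf (0.72 ± 0.21) and Ugdh (1.81 ± 0.54), which makes the UDP-glucuronate that hyaluronan and chondroitin share, and 3 fell. Of 12 heparan sulphate proteoglycans 2 rose, with Sdc1 at 1.80 ± 0.41, and 3 fell, Sdc4 by 0.79 and Hspg2 by 0.37 the most. Of 10 small leucine-rich proteoglycans outside the 9 genes, Prelp and Podn fell by 0.33 and 0.30. Of 6 versican-cleaving proteases Adamts9 and Adamts5 fell, by 0.56 and 0.52.

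**Figure D3:**
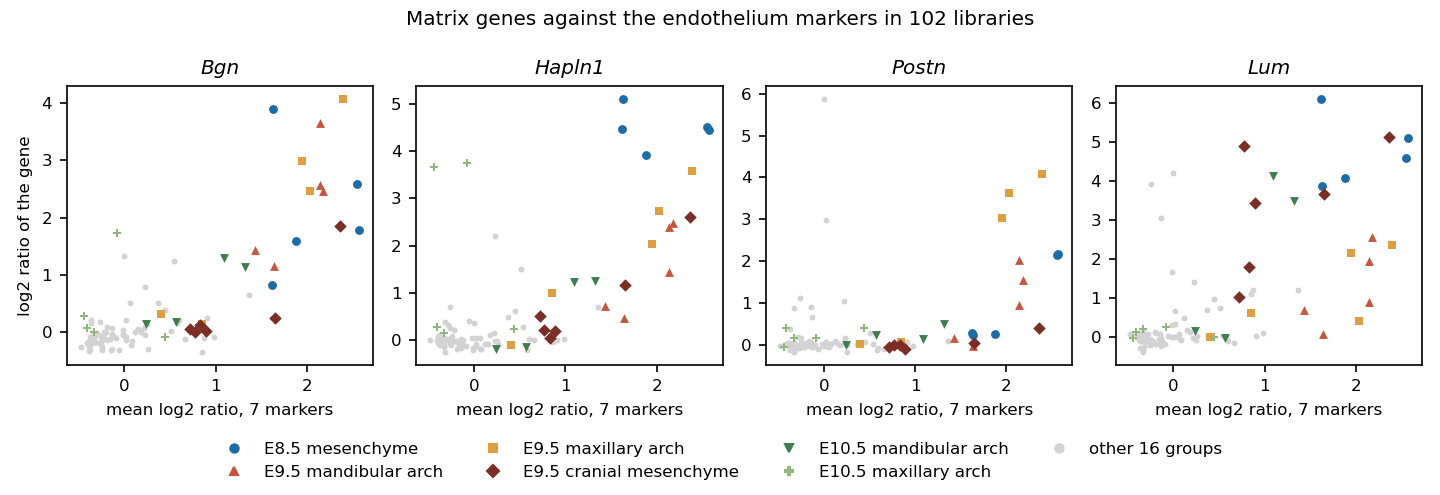
Log2 ratio of Bgn, Hapln1, Postn and Lum (vertical axes) against the mean log2 ratio of 7 endothelium markers (horizontal axes) in each sample of the 22 groups. Colour marks the 6 groups labelled mesenchyme, or arch without ectoderm. The other 16 are grey, among them the nasal prominences, which also carry mesenchyme markers. Maxillary arch samples at E9.5 with Bgn above 2 have an endothelium mean of 1.95 to 2.39, and 2 samples labelled E10.5 maxillary arch have Hapln1 at 3.74 and 3.66 with an endothelium mean of -0.08 and -0.44.

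In the E10.5 nasal prominences (medial and lateral together) Lum was 6.39-fold lower than in E9.5 cranial mesenchyme, 1 of 9 genes against 3.96% of all genes. It read 0.33, 0.07, 3.06 and 0.74 in the medial prominence and -0.01, -0.06, 1.22 and -0.10 in the lateral, against 1.03 to 5.14 in cranial mesenchyme. Of the 8 nasal samples 6 lay below the lowest cranial sample. The difference was -2.68 ± 0.53 (adjusted p = 0.0015), with an adjusted p of 0.12 when the 3 groups were fitted alone. Of 8 mesenchyme markers 2 fell, of 4 erythroid markers 1 fell, and of 7 endothelium markers 2 fell. The endothelium mean was -0.14 to 1.36 in nasal samples and 0.72 to 2.36 in cranial mesenchyme. Opticin (Optc), Nid1 and Itga8 fell too, by 0.61, 0.54 and 0.43.

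Against the neuroepithelium beneath them, the nasal prominences had more Has2 by a small step, 1 of 9 genes against 20.9% of all genes. Has2 read -0.10, 0.13, 0.12 and 0.14 in the medial and -0.12, 0.35, 0.32 and 0.46 in the lateral prominence, against -0.23 to -0.01 in the 8 neuroepithelium samples. Of the 8 prominence samples 6 lay above every neuroepithelium sample. The difference was 0.28 ± 0.07 (1.21-fold, adjusted p = 0.0027), and 0.26 (adjusted p = 0.075) without the 4 samples of conflicting labels. Of 8 mesenchyme markers 7 rose, of 8 neural markers 5 fell and 1 rose (Sox1, 0.61), and 1 of 4 macrophage markers rose (Csf1r, 0.19). Of other matrix genes 7 rose: Itgb5 (0.97 ± 0.33), Tgfbi (0.58 ± 0.17), Sdc4 (0.44 ± 0.16), Sdc3 (0.43 ± 0.14), Hapln2 (0.41 ± 0.12), Chsy3 (0.34 ± 0.10) and Lyve1 (0.26 ± 0.09). The 4 that fell were the glypican Gpc4 (-2.72 ± 0.45), the fibronectin receptor subunit Itgb1 (-1.78 ± 0.45), Sparc (-1.51 ± 0.55) and Hmmr (-0.93 ± 0.34). Lum had a difference of 0.51 here and did not pass. The change of its contrast between mesenchyme and neural tissue, E10.5 against E9.5, was -2.82 ± 0.78 and did not pass either (adjusted p = 0.076, where 0.356% of all genes passed).

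In the maxillary arch, Postn and Bgn were lower in the samples labelled E10.5 than at E9.5, 2 of 9 genes against 8.56% of all genes. Postn read 0.17, -0.04, 0.16, 0.40 and 0.40 at E10.5, against the 0.03 to 4.07 at E9.5 given above, and was 3.84-fold lower (-1.94 ± 0.54, adjusted p = 0.017). Bgn read 1.73, 0.29, 0.01, 0.07 and -0.07 at E10.5, against 0.15 to 4.07 at E9.5, and was 3.01-fold lower (-1.59 ± 0.40, adjusted p = 0.0086). The groups overlapped in both genes.

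Both calls rested on few samples. Without E9.5 maxillary replicate 2 the adjusted p was 0.12 for Bgn and 0.15 for Postn, and Postn was also lost without replicate 1 (0.11) or 3 (0.069). Fitted alone, the 2 groups gave an adjusted p of 0.31 for Bgn and 0.27 for Postn. All 7 endothelium markers, 1 of 8 mesenchyme markers and 1 of 5 cardiac muscle markers were lower at E10.5, and 3 of 8 ectoderm markers were higher. The endothelium mean was -0.44 to 0.44 at E10.5 and 0.40 to 2.39 at E9.5, and the part of the tissue mixture was not tested. Of 12 heparan sulphate proteoglycans Sdc4 rose (1.30 ± 0.20) and Gpc6 fell, by 0.98. Of 13 glycoproteins 4 fell, with Fbln1 (-1.53 ± 0.49), Nid2 (-0.98 ± 0.23) and Tgfbi (-0.92 ± 0.22) the 3 largest. Of 8 integrins Itga5 fell (-1.17 ± 0.30), and of 14 chondroitin and precursor sugar enzymes Chpf (-1.01 ± 0.26) and Xylt2 (-1.01 ± 0.34) fell and Chsy3 rose (0.40 ± 0.13). Also, Adamts9 (0.87 ± 0.26), Prelp and Fmod rose.

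**Figure D4:**
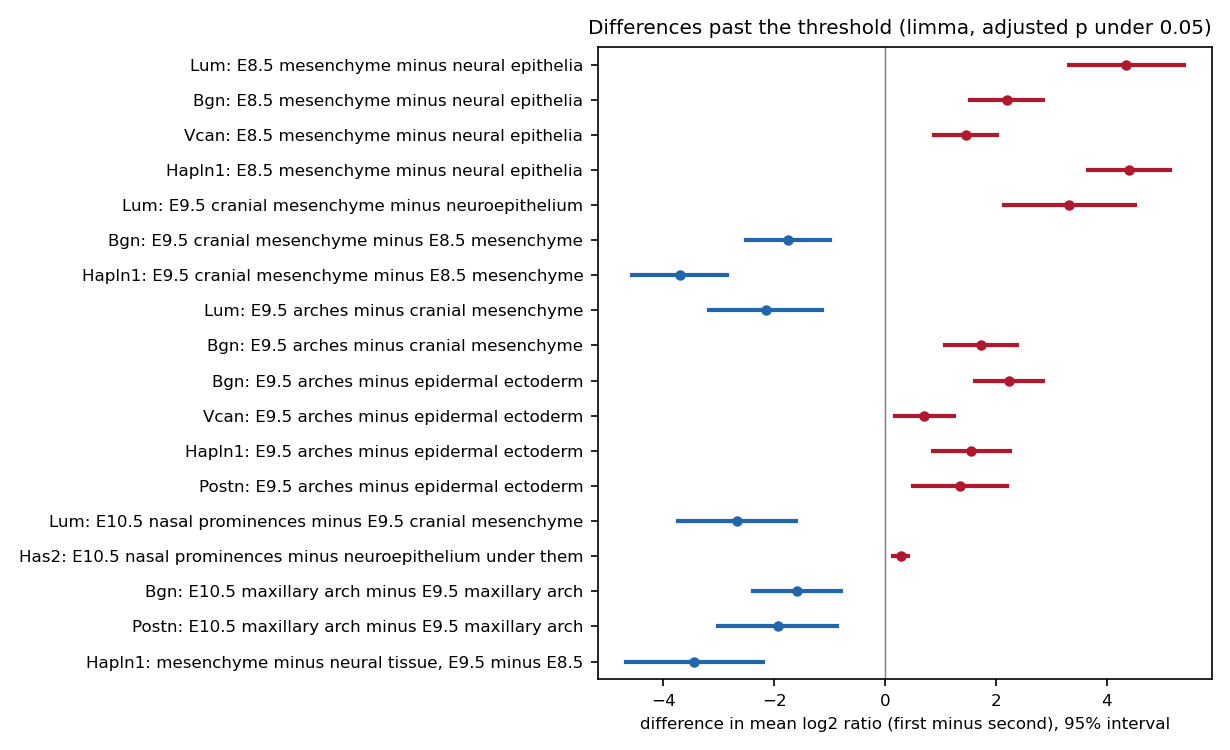
Difference in mean log2 ratio for the 18 results with an adjusted p under 0.05 (limma), first group minus second, with 95% confidence intervals that are not adjusted for the number of tests. The 11 differences above 0 are red and the 7 below 0 are blue, and they run from -3.70 for Hapln1 in E9.5 cranial against E8.5 mesenchyme to 4.40 for Hapln1 in E8.5 mesenchyme against neural epithelia.

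Of 24 comparisons, 9 had a call and 15 had none. Those 15 hold 135 tests by limma, of which 14 had an unadjusted p under 0.05. At E10.5 no gene of the 9 passed between mandibular and maxillary arch (0.772% of all genes passed), between mandibular arch and its labelled ectoderm (0.135%), or between maxillary arch and its ectoderm (0.01%). The samples behind those comparisons were uneven. Lum read 0.15, 4.14, -0.03 and 3.48 in the 4 mandibular arch samples, and Hapln1 read 3.74, 3.66, 0.16, 0.28 and 0.23 in the 5 maxillary arch samples. Lum was 1.82 ± 0.66 higher in the mandibular than in the maxillary arch without passing (adjusted p = 0.22), and Hapln1 was 1.61 ± 0.48 higher in the maxillary arch than in its ectoderm without passing (adjusted p = 0.20).

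No gene of the 9 passed in the olfactory pit against the nasal prominences (0.913% of all genes) or against maxillary arch ectoderm (0.687%), in Rathke's pouch against that ectoderm (1.63%), or in the E9.5 otic vesicle against epidermal ectoderm (0.391%). Vcan came nearest in the pit: it read -0.61, -0.71, -0.33 and -0.51 there, against 0.77, 0.07, 0.80 and 0.96 in maxillary arch ectoderm, with no overlap and a difference of -1.19 ± 0.38 (adjusted p = 0.15). Fn1 had its 1 value above 1 in otic vesicle replicate 4, at 1.55, and the other 5 otic samples read -0.15 to 0.27. That sample also had the highest Lum, Bgn, Vcan and Hapln1 of its group, at 1.42, 0.79, 1.48 and 2.20.

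No gene passed in the 5 comparisons within neural tissue. The floor plate and the caudal neural epithelium against non-floor plate (0.181% and 1.42% of all genes), the E10.5 neuroepithelium under the prominences against control (0.296%), and the steps from E8.5 to E9.5 (1.06%) and E9.5 to E10.5 (0.426%) were these comparisons. None passed between the medial and lateral nasal prominences either (0.115%). Among the other matrix lists, the comparisons without a call of the 9 genes held 8 passing results. Fbln2 (1.49 ± 0.33) and Adamts4 (0.57 ± 0.14) were higher in caudal than in non-floor plate neural epithelium. Vtn was lower in E10.5 neuroepithelium under the prominences than in control (-2.76 ± 0.42), higher at E9.5 than at E8.5 in neural tissue (1.84 ± 0.43), and passed in the stage difference of E10.5 against E9.5 (2.16 ± 0.54). Nid2 fell in neural tissue between E8.5 and E9.5 (-1.04 ± 0.23). Sdc4 was lower in the E10.5 mandibular than in the maxillary arch (-0.89 ± 0.22), and Fmod was lower in Rathke's pouch than in maxillary arch ectoderm (-0.38 ± 0.11). Vcan was lowest in neuroepithelium at the E10.5 midline, at -0.92, -0.44, -0.96 and -1.29.

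Dcn, a binder of collagen and TGF-beta, and Ogn did not pass the test among groups. Dcn was within 0.5 of baseline in 91 samples and above 1 in 11, which came from 9 groups and peaked at 3.29 in 1 sample labelled E10.5 maxillary arch. In E8.5 mesenchyme it read 1.53, 0.23, 0.49, 1.55 and 0.19, and in E9.5 mandibular arch 0.21, 2.79, 1.17, 0.20 and 0.08. Dcn and Lum are next to each other in RefSeq's gene order on chromosome 10, and in cranial mesenchyme, where Lum ran to 5.14, Dcn read -0.07 to 0.15. Ogn stayed between -0.30 and 0.26 in every grouped sample and Has2 between -0.28 and 0.46. Since the ratios hold no background level, it cannot be read from them whether Ogn was above background.

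**Figure D5:**
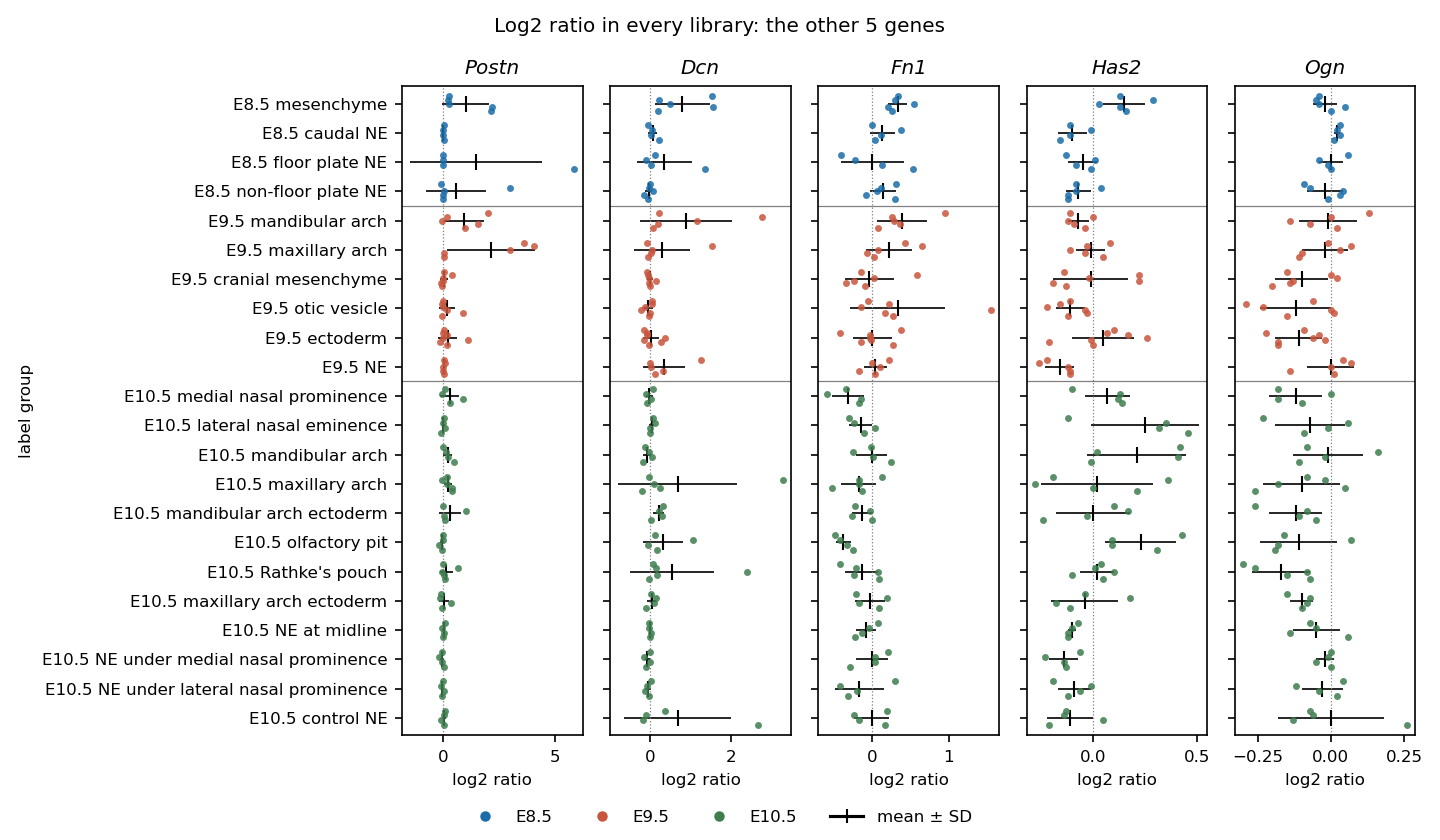
Log2 ratio of Postn, Dcn, Fn1, Has2 and Ogn (panels, each with its own horizontal scale) in every sample (points, coloured by stage) of 22 label groups, with the group mean ± SD in black. Has2 and Ogn stay between -0.30 and 0.46, while floor plate replicate 4 stands alone for Postn at 5.88.

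Likeness between the 9 genes was uneven. Over the 22 group means, which share their arrays and baseline, Pearson's r was 0.83 between Hapln1 and Bgn, 0.76 between Lum and Hapln1, 0.71 between Bgn and Postn and 0.66 between the neighbours Vcan and Hapln1, and it was 0.23 between the neighbours Lum and Dcn. Of 19938 genes, predicted genes and small RNAs passed over, the 3 most like each member by the same measure were Eng, Stard8 and Rhoj for Bgn (0.95, 0.93 and 0.93), Etv2, Gpr182 and Npr3 for Hapln1 (0.93, 0.90 and 0.90), and Cbr3, Tinag and Lyl1 for Lum (0.88, 0.86 and 0.85). For Postn they were Tek, Ghr and Pdzrn3 (0.85, 0.83 and 0.80), and for Vcan Apod, Stat6 and Dusp2 (0.81, 0.79 and 0.73). Tek is 1 of the 7 endothelium markers. For Fn1 they were Tmem132a, Ttc7b and Map3k20 (0.87, 0.86 and 0.86), and for Dcn Mbnl3, Hhip and Adgrl4 (0.75, 0.72 and 0.71). Ogn and Has2, whose means span less than 0.5, had Clpb (0.91) and Sertad1 (0.80) first.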

How the data were processed

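The deposited table holds linear expression ratios. Per the submitters' processing notes the authors used RMA, and the notes name the mouse build mm9. What the ratios are relative to is not given in the sources used here. In the files, the median ratio over 21 arrays was 1 for each probe set, within 6e-08. Of 35557 probe sets 6701 had no value. A gene took its probe set with 1 symbol and, of several, the one with the highest mean, which left 19938 genes, 999 of them with several probe sets. Array medians of log2 ratio were -0.12 to 0.08. A ratio carries no detection call. The number of arrays limits the precision, and a filter on dim genes, although planned, was left out because a ratio is not a level.

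Log2 ratios of 102 samples in 22 groups were fitted as group means with limma 3.58.1 in R 4.3.3 (80 residual degrees of freedom), tested with empirical Bayes moderation and adjusted by Benjamini-Hochberg over all genes in each comparison. A gene passed at an adjusted p under 0.05, and errors of differences are standard errors. The fit was tested on simulated data. Figures were drawn with matplotlib 3.10.9.

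The 9 genes and the 14 lists of other genes, 120 of whose 124 entries were measured, were chosen with earlier results of these data known. All 9 genes are described, and of each matrix list up to 3 passing genes per comparison are named by size of the difference. Cell type marker lists are given mostly as counts. The genes most like each member are the 3 with the highest r, predicted genes, receptors of smell and small RNAs passed over. Alternatives were array weights, quantile normalization, a robust prior with a variance that depends on the mean, no arrays of wide spread, the mean of all probe sets, the compared groups alone, a replicate block added to that smaller fit, no samples of conflicting labels, the unassigned sample as mandibular arch, and each replicate left out. The fit with a block also left out the samples of conflicting labels where a comparison used them. Averaging replicates 1 and 3 of the E10.5 mandibular arch epidermal ectoderm, which correlated at 0.947, was added after seeing the data. The next pair of arrays, replicates 2 of the E9.5 mandibular and maxillary arch, correlated at 0.847. Correlations of same-numbered samples exceeded 0.1 throughout in 0 of 29 pairs of groups, and the main fit used no pairing. They ran from -0.39 to 0.69, with 0.09 to 0.69 between E9.5 maxillary arch and cranial mesenchyme. The labels tie no samples to embryos, so this check cannot exclude shared embryos.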

Additional observations from a re-analysis of the deposited data

Results flagged for a closer look

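Of 198 sets of values (a gene in a group), 38 held a sample apart from the others by Dixon's test at the 95% level, in 26 samples. Of these values 23 lay more than 1 from baseline, and some of the rest were close to it. Chance gives about 1 in 20 for independent sets, but these sets share arrays.

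Floor plate replicate 4 of E8.5 stood out in 5 genes. It read 5.88 for Postn, 4.21 for Lum, 1.36 for Dcn, 1.33 for Bgn and 0.36 for Hapln1, and the other 3 floor plate samples read -0.24 to 0.12 in these genes. Its mean over 5 cardiac muscle markers was 1.07, against -0.00 to 0.15 in the other 3, and their part in these values was not tested. In otic vesicle replicate 4, Hapln1 read 2.20, Fn1 1.55, Lum 1.42 and Bgn 0.79, with the other 5 samples at -0.25 to 0.39. Non-floor plate replicate 2 of E8.5 read 2.98 for Postn, 0.66 for Lum and 0.04 for Has2.

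Lum was apart in 7 further samples. It read 3.92 in the E10.5 midline neuroepithelium replicate 3 (others 0.07 to 0.14), 1.66 in Rathke's pouch replicate 3, 1.22 in lateral nasal eminence replicate 3, 1.21 in neuroepithelium under the medial prominence replicate 4, 1.11 in E9.5 epidermal ectoderm replicate 1, 0.49 in E9.5 neuroepithelium replicate 2 and -0.38 in olfactory pit replicate 3. Dcn read 3.29 in replicate 2 labelled E10.5 maxillary arch (others -0.20 to 0.24), 2.40 in Rathke's pouch replicate 3, 1.53 in E9.5 maxillary arch replicate 2, 1.27 in E9.5 neuroepithelium replicate 1 and 0.15 in cranial mesenchyme replicate 4.

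Bgn read 1.86 in cranial mesenchyme replicate 2 (others 0.01 to 0.25), 1.73 in replicate 1 labelled E10.5 maxillary arch, 1.24 in control neuroepithelium replicate 4, -0.07 in olfactory pit replicate 1 and -0.29 in Rathke's pouch replicate 2. Postn read 1.12 in E9.5 epidermal ectoderm replicate 5, 1.04 in replicate 2 labelled E10.5 mandibular arch epidermal ectoderm, 0.88 in otic vesicle replicate 5, 0.67 in Rathke's pouch replicate 2, 0.40 in cranial mesenchyme replicate 2 and 0.37 in maxillary arch epidermal ectoderm replicate 3. Hapln1 read 1.5 in medial nasal prominence replicate 4, Has2 -0.10 in medial nasal prominence replicate 1 and Ogn 0.07 in olfactory pit replicate 2.

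Hapln1 differed between stages in its contrast of mesenchyme (cranial at E9.5) with neural tissue, E9.5 minus E8.5, by -3.44 ± 0.62 in limma's test of that difference (adjusted p = 0.0005).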

How the results depend on the processing

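Of 18 calls none turned direction, 6 held under every alternative (Lum, Bgn, Vcan and Hapln1 in E8.5 mesenchyme against neural epithelia, Bgn in E9.5 arches against ectoderm, and the stage difference of Hapln1), and 13 held with each replicate left out. With the compared groups fitted alone 8 calls were lost, and with the groups alone plus a replicate block 12 were lost. A replicate block without the other change was not run, so its own share is not known, and "alone with block" below is both changes together. Where a comparison used the samples of conflicting labels, the fit with a block left these out as well. Counts below are of the 9 genes called. The range of counts over all genes follows in the next paragraph, except for replicates left out. Cranial mesenchyme against neuroepithelium had 1 call, 0 with the groups alone and 0 alone with block. Cranial against E8.5 mesenchyme had 2 calls, 6 with array weights, 1 alone, 0 alone with block, and 1 to 3 with a replicate left out. Arches against cranial mesenchyme had 2 calls, 5 with weights, 0 alone, 0 alone with block, and 1 to 5 with a replicate left out. Arches against ectoderm had 4 calls, 1 alone with block, and 3 to 6 with a replicate left out. Nasal prominences against cranial mesenchyme had 1 call, 2 with weights, 0 alone and 0 alone with block. Nasal prominences against neuroepithelium had 1 call, 0 without the samples of conflicting labels and 0 alone with block, which also left out those samples. The maxillary arch of E10.5 against E9.5 had 2 calls, 0 alone, 0 alone with block, and 0 to 2 with a replicate left out. The stage difference of E9.5 against E8.5 had 1 call, 2 with weights, and 1 to 2 with a replicate left out. That of E10.5 against E9.5 had 0 calls, 1 with quantile normalization, 1 with weights, and 0 to 1 with a replicate left out. Array weights gave 1 call in place of 0 between E9.5 mandibular and maxillary arch, 1 between those of E10.5, 1 between maxillary arch and its ectoderm, and 2 between mandibular arch and its ectoderm. Over all genes, array weights gave 85, 729 and 2543 in the first, second and last of these, and at most 69 in the third. Leaving out arrays of wide spread gave 1 in the E10.5 mandibular against maxillary arch and 1 in the mandibular arch against its ectoderm. The counts over all genes in that setting are not given here, so these calls are not read as a result about the 9 genes. By the F-test 7 genes passed, 8 with array weights (Ogn added, adjusted p = 0.019), 6 without arrays of wide spread (Postn lost, 0.074), and 6 to 7 in 98 refits without 1 sample each. Over all 19938 genes the F-test had 11767, 14918 with array weights and 10009 without arrays of wide spread. The cause of these shifts was not tested.

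Counts over all genes moved more. From the lowest to the highest alternative, other than leaving out a replicate, they were 274 to 896 for E8.5 mesenchyme against neural epithelia (478 as reported), 1 to 603 for cranial mesenchyme against neuroepithelium (229), 5 to 1776 for cranial against E8.5 mesenchyme (305), 12 to 3495 for arches against cranial mesenchyme (186), and 704 to 7733 for arches against ectoderm (7373). They were 1 to 1308 for nasal prominences against cranial mesenchyme (790), 166 to 5120 against neuroepithelium (4165), 27 to 4913 for the maxillary arch of E10.5 against E9.5 (1707), and 19 to 286 for the stage difference of E9.5 against E8.5 (73). In each of the 9 comparisons with a call the highest count came with array weights. In the 15 comparisons without a call they ran between 0 and 2543. The 2543 came with array weights in E10.5 mandibular arch against its ectoderm, where 2 of the 9 genes passed.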

Other observations

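The sample that the labels place both in the E9.5 mandibular arch and in the epidermal ectoderm read 2.81 for Bgn, 1.54 for Postn, 1.51 for Hapln1, 1.49 for Dcn and 0.90 for Lum. Ogn was at -0.03, Fn1 at -0.08, Has2 at -0.15 and Vcan at -0.77. Its mean log2 ratio was 1.41 over the mesenchyme markers, 1.23 over the surface ectoderm markers and 0.85 over the endothelium markers.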
